A study of Mus musculus with 12 samples.

Results

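The mRNA levels of 10 genes of fibroblasts, contractile mural cells and extracellular matrix turnover were followed in kidney cortex of TRACK mice, a transgenic model of clear cell renal cell carcinoma. The 10 genes (Fn1, Postn, Tgfbi, Tgfb1, Pdgfra, Pdgfrb, Acta2, Tagln, Mmp2 and Timp1) were picked by name among the 37681 Ensembl genes of the deposited table, and each matched a single row. All 10 had enough reads to be among the 19399 genes tested.

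The TG+ group was made up of 3 male C57BL/6 TRACK mice (genotype TRACK/gamma-HIF1alphaM3 TG+), numbered 43-29, 43-49 and 43-75, whose transgene encodes a mutated, constitutively active HIF1α expressed in the proximal tubules. The TG- group held 3 male C57BL/6 wild-type littermates, 43-26, 43-50 and 43-76. All mice were 18 months old and untreated, and a thin outer slice of cortex was taken from each of the 2 kidneys of a mouse, giving 12 libraries. The transgene was aimed at an epithelial cell, whereas fibroblasts and mural cells are the usual sources of most of these 10 mRNAs. The slice holds all cell types of the cortex, and in such a bulk sample more cells of a type and more RNA per cell cannot be told apart.

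Fibroblasts and pericytes lie between the tubules and around the capillaries of the kidney. Transforming growth factor β1, released from a latent complex bound to matrix, and platelet-derived growth factors, acting on the receptors PDGFRα and PDGFRβ, are the best-known signals that turn these cells into contractile myofibroblasts, which contain α-smooth muscle actin and transgelin. Myofibroblasts deposit fibronectin, collagens and matricellular proteins such as periostin. Metalloproteinases such as MMP2 cut this matrix and are held in check by tissue inhibitors such as TIMP1. Renal fibrosis is the setting in which this set of genes is usually measured.

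Because the transgene encodes a hypoxia-inducible factor, the 250 bases before the RefSeq transcription start of the 10 genes were searched for the core letters of the hypoxia response element, ACGTG and GCGTG, on both strands. A window was at hand for 6 genes (7 windows, of which 2 for Postn; GRCm38.p6), while Fn1, Tagln, Pdgfrb and Mmp2 were not in the table. The letters were found for 3 of the 6 genes, Tgfb1, Tgfbi and Timp1, and not for Acta2, Pdgfra and Postn. Of 32851 windows of the same length over all genes, 38.6% held either motif (16.6% ACGTG and 28.2% GCGTG), so holding one is common. The 3 windows with a match are shown because they are the stretches of these genes that the factor's known motif touches. The sequences run 5′ to 3′ along the gene and end at the base before the start site, with the matched letters in capitals.
Tgfb1, chr7:25686752-25687001, plus strand: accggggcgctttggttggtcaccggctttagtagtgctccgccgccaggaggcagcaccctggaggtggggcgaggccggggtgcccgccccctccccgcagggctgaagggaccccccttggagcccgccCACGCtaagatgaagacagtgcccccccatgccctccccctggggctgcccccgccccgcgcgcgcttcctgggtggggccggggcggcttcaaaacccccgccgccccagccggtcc
Tgfbi, chr13:56609336-56609585, plus strand: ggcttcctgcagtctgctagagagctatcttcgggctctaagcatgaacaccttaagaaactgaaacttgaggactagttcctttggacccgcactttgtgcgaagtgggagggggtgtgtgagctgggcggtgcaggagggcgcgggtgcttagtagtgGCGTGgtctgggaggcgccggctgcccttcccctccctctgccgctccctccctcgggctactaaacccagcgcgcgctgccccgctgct
Timp1, chrX:20869916-20870165, plus strand: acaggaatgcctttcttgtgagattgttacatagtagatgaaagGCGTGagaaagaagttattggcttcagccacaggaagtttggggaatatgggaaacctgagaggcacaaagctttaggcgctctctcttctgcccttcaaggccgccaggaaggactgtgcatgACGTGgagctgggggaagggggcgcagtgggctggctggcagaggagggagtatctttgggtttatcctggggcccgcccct
In Tgfb1 the letters GCGTG lie on the opposite strand, so that the complement is capitalized, and begin 118 bases before the start. In Tgfbi they begin 90 bases before the start. Timp1 has ACGTG 82 bases and GCGTG 206 bases before the start. A match in letters is not a binding site, and binding was not measured in these libraries.

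The libraries held between 21888584 and 27819034 counted reads in TG+ and between 24963346 and 33704850 in TG-. The counts of the kidneys of a mouse were summed, and levels are given as CPM (counts relative to a fixed library total) after scaling by the trimmed mean of M-values. Hif1a itself was at 95.7 ± 11.8 CPM in TG+ and 104 ± 2.17 CPM in TG- (SD, n = 3 mice each; log2 fold change -0.12, SE 0.09, adjusted p = 0.343), and reads of the transgene were not told apart from those of the native gene. Car9, a textbook HIF1α target, was at 148 ± 23 CPM in TG+ and 14.7 ± 2.95 CPM in TG- (log2 fold change 3.33, SE 0.17, adjusted p = 2.13e-05), with every TG+ mouse above every TG- mouse. Proximal tubule markers were abundant in every mouse (Kap at 16181 CPM in TG+ and 17074 CPM in TG-), which fits the cortex label.

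All 10 genes had a higher mean level in TG+ than in TG- kidney cortex, and 6 of them rose at an adjusted p below 0.05 (edgeR's quasi-likelihood test on mice, adjusted by the Benjamini-Hochberg method over all 19399 genes). These were Fn1, Tgfb1, Tgfbi, Pdgfra, Pdgfrb and Tagln. None fell, and Acta2, Postn, Timp1 and Mmp2 did not pass the test. Of all genes tested, 15.4% were called higher and 10.9% lower by the same rule, and 51.8% had a log2 fold change above 0. Over the 10 genes the log2 fold change had a median of 0.73 (range 0.42 to 1.32), beside a median of 0.01 over all genes tested. The 10 genes were chosen with earlier results of these data known, so the counts and the median are descriptions. At the threshold used by the study (fold change above 2 or below 0.5 with an adjusted p below 0.01) only Fn1 of the 10 was called, and 3.77% of all genes were called higher.

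**Figure D1:**
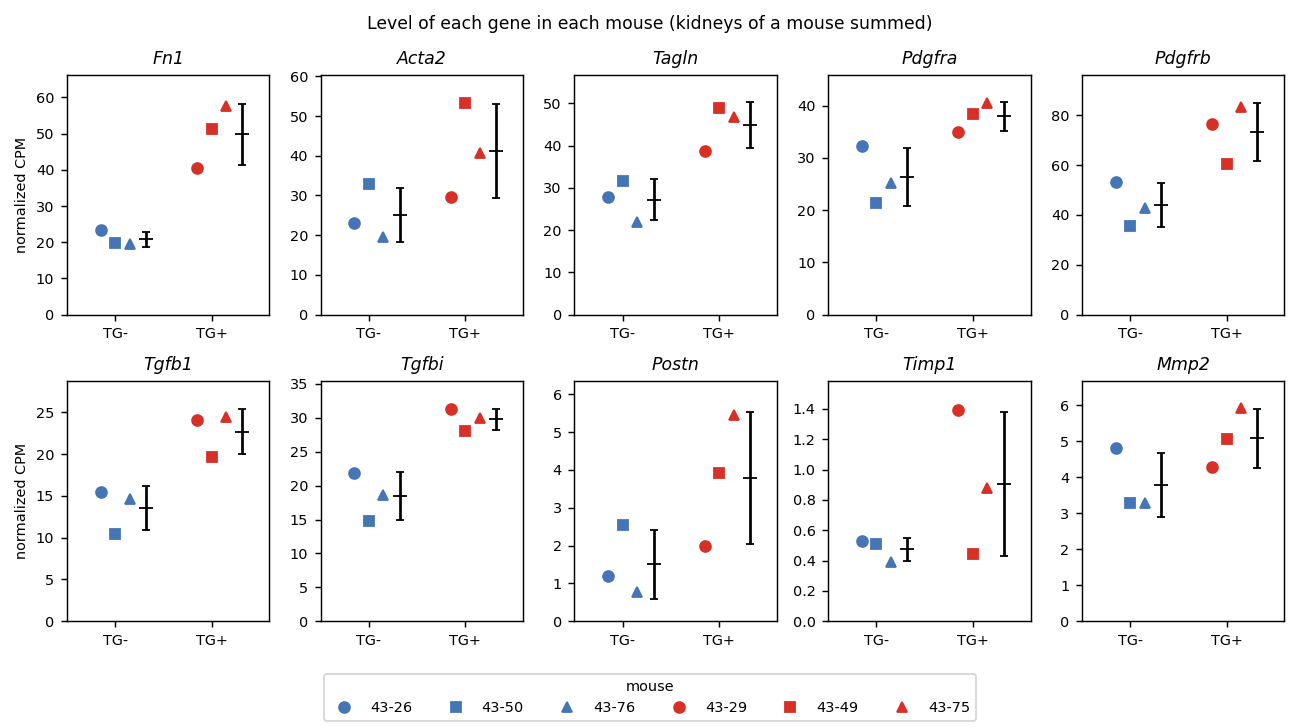
Normalized CPM (vertical axes, from 0) of the 10 genes in each of 6 mice, TG- in blue and TG+ in red, with the mean ± SD of 3 mice in black. The mice of the groups lie apart for Fn1, Tagln, Pdgfra, Pdgfrb, Tgfb1 and Tgfbi and overlap for Acta2, Postn, Timp1 and Mmp2.

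Among the matrix genes, Fn1, which encodes fibronectin, a glycoprotein of the provisional matrix that cells grip through integrins, showed the clearest increase. Its level was 40.6, 51.2 and 57.5 CPM in the TG+ mice 43-29, 43-49 and 43-75, and 23.3, 19.7 and 19.4 CPM in the TG- mice 43-26, 43-50 and 43-76. The lowest TG+ mouse was well above the highest TG- mouse. The fold change was 2.39 (log2 1.26, SE 0.13, 95% interval 0.95 to 1.57, adjusted p = 6.12e-04). With mice permuted between groups in all 20 ways (exact permutation test, 2-sided), p was 0.1, the smallest this design can give. In counts, Fn1 had between 2007 and 2906 reads in a TG+ mouse and between 946 and 1197 in a TG- mouse. Apol7d, a gene on the other strand that shares 292 of the 11685 exonic bases of Fn1 (GENCODE M21), had at most 58 reads in a mouse and rose as well (log2 1.16, adjusted p = 0.0142). How reads from the shared bases were counted is not given in the sources used here.

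Tgfbi, a secreted adhesion protein that binds collagen and integrins and was named for its induction by TGF-β, was measured at 31.3, 28.1 and 29.9 CPM in the TG+ mice (43-29, 43-49, 43-75) and at 21.9, 14.8 and 18.6 CPM in the TG- mice (43-26, 43-50, 43-76). The TG+ mice were close to each other, with an SD of 1.63 CPM against 3.53 CPM in TG-, and all 3 were above the TG- mice. Tgfbi rose 1.62-fold (log2 0.69, SE 0.13, 95% interval 0.39 to 0.99, adjusted p = 0.00748), and the upper bound of the interval lies just under a 2-fold increase.

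Postn encodes periostin, a matricellular protein of myofibroblasts that is scarce in healthy kidney. It was the least abundant of the 10 genes per length, and its counts were 98, 222 and 274 reads in the TG+ mice and 61, 145 and 38 reads in the TG- mice. In CPM these were 1.98, 3.91 and 5.46 against 1.19, 2.54 and 0.778, so that the TG- mouse 43-50 exceeded the TG+ mouse 43-29. Its mean difference was the highest of the 10 (log2 1.32, fold 2.49), but so was its standard error (0.47), and it did not pass the test (95% interval 0.22 to 2.42, adjusted p = 0.0771). Leaving out 43-50 gave a log2 fold change of 1.94 (adjusted p = 0.0281), and leaving out 43-29 gave 1.61 (adjusted p = 0.0353), both past the threshold, whereas leaving out 43-75 gave 0.95 (adjusted p = 0.227).

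Tgfb1, the ligand of the set, had 24.1, 19.6 and 24.4 CPM in TG+ and 15.5, 10.5 and 14.6 CPM in TG-. No TG- mouse reached the lowest TG+ mouse, 43-49. The fold change was 1.68 (log2 0.75, SE 0.15, 95% interval 0.39 to 1.11, adjusted p = 0.0106). mRNA levels do not report on the release of the latent protein, which is the step that controls TGF-β activity.

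The receptors for platelet-derived growth factor were both higher. Pdgfrb, which marks pericytes, mesangial cells and fibroblasts, was at 76.4, 60.3 and 83.2 CPM in TG+ and at 53.2, 35.5 and 42.9 CPM in TG-. Pdgfra, which marks interstitial fibroblasts, was at 35.0, 38.5 and 40.5 CPM in TG+ and at 32.3, 21.3 and 25.3 CPM in TG-. The TG- mouse 43-26 was the highest of its group for each receptor and, for Pdgfra, lay just under the lowest TG+ mouse. Pdgfrb rose 1.67-fold (log2 0.74, SE 0.16, 95% interval 0.36 to 1.12, adjusted p = 0.0139).

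Pdgfra rose 1.45-fold (log2 0.53, SE 0.14, 95% interval 0.20 to 0.86, adjusted p = 0.0286). The calls of the receptors were lost in some fits with a single mouse left out, which have fewer mice to test. Pdgfrb missed the threshold without 43-75 (log2 0.63, adjusted p = 0.052) and without 43-76 (log2 0.72, adjusted p = 0.054). Pdgfra missed it without 43-49 (0.52, adjusted p = 0.0665), 43-50 (0.40, adjusted p = 0.0616), 43-75 (0.47, adjusted p = 0.0935) or 43-76 (0.50, adjusted p = 0.0955).

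The contractile genes Tagln and Acta2 had almost equal fold changes but unequal spread. Tagln, which encodes the actin-binding protein transgelin, was at 38.8, 49.0 and 46.8 CPM in TG+ and at 27.9, 31.7 and 22.0 CPM in TG-, and the groups did not overlap. It rose 1.65-fold (log2 0.72, SE 0.14, 95% interval 0.40 to 1.04, adjusted p = 0.00837). Pcsk7, which shares 108 exonic bases with Tagln on the other strand, was at 37.4 CPM in TG+ and 41.1 CPM in TG- and did not pass the test (log2 fold change -0.14, adjusted p = 0.115). Whether the counting used strand is not given in the sources used here, so reads from the shared bases cannot be assigned to either gene.

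Acta2, which encodes α-smooth muscle actin, the usual marker of myofibroblasts and of vascular smooth muscle, was at 29.5, 53.2 and 40.7 CPM in TG+ and at 23.0, 32.8 and 19.6 CPM in TG-. The TG- mouse 43-50 exceeded the TG+ mouse 43-29, and the difference did not pass the test (fold 1.64, log2 0.71, SE 0.24, 95% interval 0.15 to 1.27, adjusted p = 0.065). Acta2 passed without 43-29 (log2 0.89, adjusted p = 0.0246) and without 43-50 (log2 0.95, adjusted p = 0.0332), the mice that overlapped. The deposited table names the mice in pairs (43-26 with 43-29, 43-49 with 43-50, 43-75 with 43-76), and within each pair Acta2 was higher in the TG+ mouse. With the pairs as a replicate block it passed the test (log2 0.70, adjusted p = 0.00833). Without 43-49, the highest TG+ mouse, its log2 fold change was the lowest of all settings, 0.48.

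**Figure D2:**
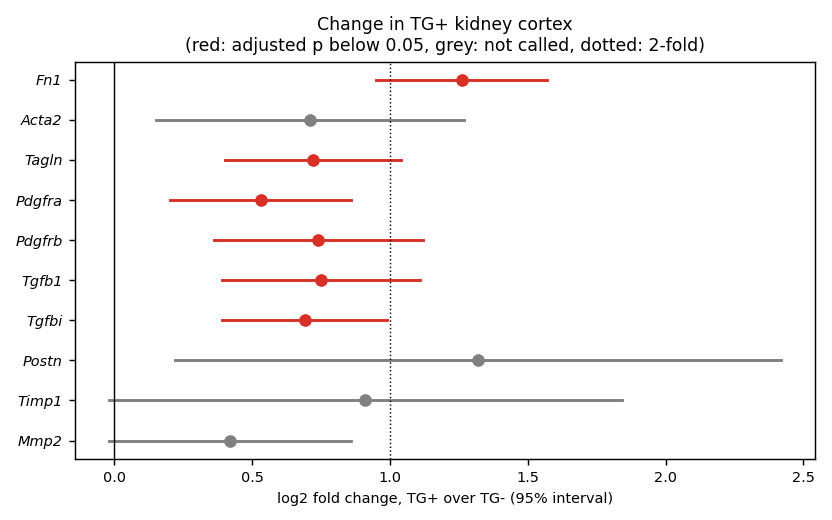
Log2 fold change of TG+ over TG- (horizontal axis) for each gene, with its 95% interval from the quasi-likelihood test on 3 against 3 mice, red where the adjusted p was below 0.05. All 10 points lie above 0, from 0.42 for Mmp2 to 1.32 for Postn, and the intervals of Timp1 and Mmp2 include 0.

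The genes of proteolysis did not pass the test. Mmp2, the gelatinase that cuts denatured and basement membrane collagen, was at 4.27, 5.06 and 5.91 CPM in TG+ and at 4.82, 3.29 and 3.27 CPM in TG-, where 43-26 exceeded the TG+ mouse 43-29. Its log2 fold change was 0.42 (SE 0.19, 95% interval -0.02 to 0.86, adjusted p = 0.14), 0.63 without 43-26 (adjusted p = 0.0368) and 0.29 without 43-75 (adjusted p = 0.375). The interval leaves room for an increase of Mmp2 as large as that of Tagln or Tgfb1.

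Timp1, the secreted metalloproteinase inhibitor, had only 69, 25 and 44 reads in the TG+ mice and 27, 29 and 19 in the TG- mice. In CPM these were 1.39, 0.441 and 0.876 against 0.526, 0.508 and 0.389, so that the TG+ mouse 43-49 lay below 2 of the 3 TG- mice. The log2 fold change was 0.91 (SE 0.40, 95% interval -0.02 to 1.84, adjusted p = 0.135). Without 43-49 it was 1.25 (adjusted p = 0.0217), and without 43-29, the highest TG+ mouse, it was 0.45 (adjusted p = 0.41). The interval of Timp1 includes both no change and a 2-fold rise.

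The mice of the groups did not overlap for 6 of the 10 genes in the direction of an increase, which held for 23.4% of all genes tested. With the 12 libraries taken singly, each of the 6 TG+ libraries was above each of the 6 TG- libraries for 4 genes, Fn1, Tagln, Tgfb1 and Tgfbi, against 13.4% of all genes. The kidneys of a mouse are not independent, so these are descriptions.

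**Figure D3:**
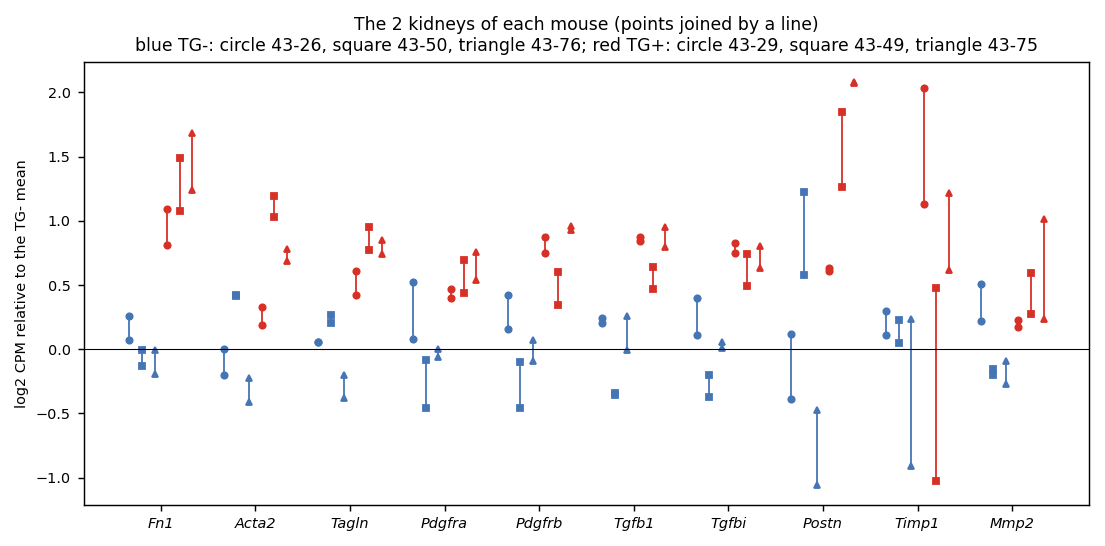
Log2 CPM relative to the TG- mean (vertical axis) in each of 12 libraries, with the kidneys of a mouse joined by a line, TG- in blue and TG+ in red. The longest line is Timp1 in 43-49, where the kidneys differ by 1.50, and for Acta2 and Tagln the lines are short against the gaps between mice.

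For the contractile genes the kidneys of a mouse were close to each other and the mice were not. The mean absolute log2 difference between kidneys of a mouse was 0.13 for Acta2 and 0.12 for Tagln, beside 0.53 and 0.29 between mice of a genotype. The value between mice compares means of their kidneys and the value between kidneys compares single libraries, so the measures are unlike. In 43-50, the TG- mouse with the highest Acta2, the kidneys gave 32.8 and 32.7 CPM, and in 43-49, the TG+ mouse with the highest, 56.0 and 50.1 CPM. Postn showed the same order, with 0.39 between kidneys and 1.04 between mice.

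For Fn1 the value between kidneys of a mouse was near that between mice of a genotype (0.27 and 0.26 on the log2 scale). The latter is again between means of kidneys, so near values do not mean equal spread. The TG+ kidneys ranged from 36.3 CPM in 43-29 to 66.5 CPM in 43-75, and the TG- kidneys from 18.1 CPM in 43-76 to 24.8 CPM in 43-26. Pdgfra was alike, with 0.24 between kidneys and 0.26 between mice, and its highest TG- kidney, at 37.0 CPM in 43-26, exceeded the kidneys of the TG+ mouse 43-29 (34.0 and 35.8 CPM). For Timp1 the kidneys of 43-49 gave 19 and 6 reads, 0.636 and 0.224 CPM. Mmp2 varied most between the kidneys of 43-75, with 4.37 and 7.52 CPM.

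The order of the mice within a group was not the same for all 10 genes. Among the TG+ mice, 43-75 was the highest for 6 genes and the lowest for none. The mouse 43-29 was the lowest for 6 genes and the highest for 2, Tgfbi and Timp1. The mouse 43-49 was the highest for Acta2 and Tagln and the lowest for Pdgfrb, Tgfb1, Tgfbi and Timp1. Among the TG- mice, 43-50 was likewise the highest for Acta2, Tagln and Postn and the lowest for 4 genes, and 43-26 was the highest for the other 7. The median over the 10 genes of the log2 level relative to the TG- mean was 0.68, 0.60 and 0.84 in the TG+ mice 43-29, 43-49 and 43-75, and 0.20, -0.13 and -0.14 in the TG- mice 43-26, 43-50 and 43-76.

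Levels of different genes can be compared only per length, for which the deposited RPKM values were used. In TG- cortex Tagln was the highest at 17.4 ± 3.11 RPKM, followed by Acta2 at 14.3 ± 3.87 RPKM (SD, n = 3 mice), and these neighbours overlapped. Pdgfrb (4.11 ± 0.807 RPKM), Tgfb1 (4.07 ± 0.808 RPKM) and Tgfbi (3.31 ± 0.621 RPKM) came next, each overlapping its neighbour in this order. Pdgfra was at 2.03 ± 0.416 RPKM, Mmp2 at 1.27 ± 0.293 RPKM, Fn1 at 0.873 ± 0.0905 RPKM, Timp1 at 0.302 ± 0.0418 RPKM and Postn at 0.0677 ± 0.0393 RPKM, with no overlap between neighbours from Tgfbi downward. Per length, the contractile transcripts were the most abundant of the set in wild-type cortex.

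In TG+ cortex a single pair of neighbours changed places. Fn1, at 2.03 ± 0.368 RPKM, moved ahead of Mmp2, at 1.66 ± 0.28 RPKM, by mean only. The TG+ mice overlapped for these genes (1.64 to 2.37 RPKM for Fn1 and 1.39 to 1.95 RPKM for Mmp2). Tagln (27.8 ± 3.49 RPKM) and Acta2 (22.8 ± 6.57 RPKM) remained the highest and Postn (0.165 ± 0.0762 RPKM) the lowest. With CPM per kilobase of GENCODE exonic length in place of RPKM, chosen after seeing the data, Tgfbi ranked above Tgfb1 and Fn1 above Mmp2 in TG- as well, so the order of these neighbours depends on the gene model.

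The genes most like Fn1 across the 6 mice, among 10180 genes with a mean of at least 10 CPM, were Zc2hc1a (Pearson r 0.9977 of log2 CPM), Zeb1 (r 0.9953) and C1s1 (r 0.9927). With only 6 mice in 2 groups, 804 genes had an r above 0.9 to Fn1, so likeness of this degree was common. Of the other 9 genes of the set, Tagln was the most like Fn1 (r 0.92) and Timp1 the least (r 0.52). The points share their libraries and the split into genotypes, and the r values are descriptions.

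Related genes were counted by role in lists drawn up beside the 10. All 3 mice of a group enter each value, and calls are those of the same test. Beside these counts, 15.4% of all genes tested were called higher and 10.9% lower. Such shares are not given for the other settings, so list counts in those settings stand without them. Some genes, such as Itgav, Eng, Itga8, Des and Dcn, stand in several of the related and marker lists, so the lists are not separate results.

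In the TGF-β pathway 8 of 22 genes rose and 1 fell (median log2 fold change 0.25). The ligand Tgfb3 rose from 1.70 to 3.53 CPM (log2 1.05, SE 0.15, adjusted p = 0.00204), while Tgfb2 did not pass the test (log2 0.36, adjusted p = 0.112). Itgav, the integrin subunit αv that takes part in freeing latent TGF-β, rose from 106 to 148 CPM (log2 0.48, SE 0.09, adjusted p = 0.00694). Itgb6, its epithelial partner in that step, fell from 160 to 128 CPM (log2 -0.32, SE 0.08, adjusted p = 0.0281), a call lost with scaling by library size alone (adjusted p = 0.0799), in the first kidney alone (0.0507) and without 43-26 (0.0561), 43-29 (0.0567), 43-50 (0.0862) or 43-76 (0.0552).

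The latent TGF-β binding proteins Ltbp1, Ltbp2, Ltbp3 and Ltbp4, named after their values were seen, were all among the 8 that rose (log2 0.60, 1.63, 0.45 and 0.58). Ltbp1 missed the threshold in the first kidney alone (adjusted p = 0.0692) and without 43-29 (0.0515), 43-49 (0.0501) or 43-76 (0.0527), Ltbp3 in the first kidney alone (0.0823) and Ltbp4 without 43-76 (0.0632). The signalling receptors and SMAD proteins did not pass the test. Tgfbr1 had a log2 fold change of 0.12 (SE 0.08), Tgfbr2 of -0.03 (SE 0.07), Smad2 of -0.01 (SE 0.09), Smad3 of 0.10 (SE 0.15) and Smad4 of 0.01 (SE 0.07). Without 43-76, 5 of the 22 genes rose.

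Of the 4 PDGF ligands 3 rose (median log2 0.71). Pdgfd, a ligand of PDGFRβ, rose from 19.5 ± 1.86 to 41.2 ± 1.56 CPM (log2 1.08, SE 0.08, adjusted p = 1.10e-04). Pdgfa, a ligand of PDGFRα, rose from 13.0 ± 1.04 to 26.4 ± 4.24 CPM (log2 1.03, SE 0.12, adjusted p = 0.00116). Pdgfb, typically of endothelium, rose from 26.6 to 34.9 CPM (log2 0.39, SE 0.08, adjusted p = 0.00887). Pdgfc was at 32.7 ± 5.1 CPM in TG- and 25.8 ± 3.59 CPM in TG+ and did not pass the test (log2 -0.34, SE 0.14, adjusted p = 0.105), though DESeq2 called it lower, as did edgeR's test with a block for pairs of mice (log2 -0.34, adjusted p = 0.00611) and without the TG- mouse 43-26 (log2 -0.47, adjusted p = 0.0295). The increases of Pdgfd and Pdgfa were larger in fold than those of their receptors, a difference that was not tested.

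Of 10 fibronectin receptors 7 rose and none fell (median log2 0.50). Itga5, the α5 subunit of the classical fibronectin receptor, rose from 7.74 to 12.9 CPM (log2 0.74, SE 0.08, adjusted p = 8.05e-04). Itga4, the α4 subunit of leukocytes, rose from 6.03 to 11.4 CPM (log2 0.92, SE 0.10, adjusted p = 8.71e-04). The proteoglycan Sdc1 rose from 7.77 to 14.5 CPM (log2 0.90, SE 0.11, adjusted p = 0.00101). Sdc4 was the lowest of the list (log2 -0.07, SE 0.10, adjusted p = 0.657).

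Of 15 further contractile smooth muscle genes 14 were tested, and 5 rose (median log2 0.44). They included Cald1 (log2 0.65, SE 0.12, adjusted p = 0.00743), Cnn2 (log2 0.63, SE 0.12, adjusted p = 0.00856) and Tpm1 (log2 0.35, SE 0.08, adjusted p = 0.017), actin-binding proteins that many cell types besides smooth muscle contain. The other genes that rose were Des, the muscle intermediate filament protein desmin (log2 0.51, SE 0.14, adjusted p = 0.0302), and Synpo2, a muscle actin-binding protein (log2 0.64, SE 0.16, adjusted p = 0.0221). The call of Tpm1 was lost without 43-76 (adjusted p = 0.0641). The call of Des was lost in the first kidney alone (adjusted p = 0.0993) and without 43-49 (0.0817), 43-50 (0.0965), 43-75 (0.0984) or 43-76 (0.103), and that of Synpo2 without 43-49 (0.0594), 43-50 (0.0727), 43-75 (0.0754) or 43-76 (0.081). Myh11 and Cnn1, markers of differentiated smooth muscle, did not pass the test (log2 0.41, SE 0.19, and 0.12, SE 0.35), and Smtn was the lowest (log2 -0.05, adjusted p = 0.819). The count fell to 3 without 43-49 or 43-75 and to 2 without 43-76.

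Of 16 pericyte and fibroblast genes 8 rose, none fell and all had a log2 fold change above 0 (median 0.76). Notch3, a receptor of pericytes and vascular smooth muscle, rose from 16.8 ± 1.84 to 35.4 ± 1.19 CPM (log2 1.07, SE 0.08, adjusted p = 1.52e-04). Cd248, or endosialin, rose from 9.63 to 16.2 CPM (log2 0.75, SE 0.08, adjusted p = 6.36e-04), and Thy1 from 2.22 to 4.29 CPM (log2 0.95, SE 0.14, adjusted p = 0.00252). Pdpn was the lowest (log2 0.09, adjusted p = 0.711).

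Of 25 matricellular proteins and matrix glycoproteins 15 rose, none fell and all had a log2 fold change above 0 (median 0.71). Sparc, a collagen-binding matricellular protein, rose from 96.0 to 153 CPM (log2 0.68, SE 0.08, adjusted p = 7.89e-04). Efemp2, or fibulin-4, an elastic fibre protein, rose from 5.18 to 9.91 CPM (log2 0.94, SE 0.12, adjusted p = 0.00146). Lgals3, or galectin-3, which macrophages and injured tubules also produce, rose from 21.9 to 56.8 CPM (log2 1.38, SE 0.18, adjusted p = 0.0015). Spp1, osteopontin, was the lowest (log2 0.12, adjusted p = 0.367). The count was 9 in the first kidney alone and without 43-50, 43-75 or 43-76.

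Of 27 metalloproteinases, their inhibitors and related proteases 24 were tested, of which 9 rose and 2 fell (median log2 0.43). Mmp9, the other gelatinase and mainly a product of leukocytes, rose from 0.662 to 1.88 CPM (log2 1.50, SE 0.25, adjusted p = 0.00477). Adamts1 rose from 41.1 to 82.9 CPM (log2 1.01, SE 0.13, adjusted p = 0.00132), and Plaur, the urokinase receptor, from 2.26 to 5.23 CPM (log2 1.21, SE 0.19, adjusted p = 0.0038). Adamts15 fell from 45.4 ± 17.5 to 23.0 ± 2.99 CPM (log2 -0.98, SE 0.28, adjusted p = 0.0345). That call did not hold with scaling by library size alone (adjusted p = 0.0514) and without 43-29 (0.055), 43-49 (0.0752), 43-50 (0.104), 43-75 (0.104) or 43-76 (0.108).

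The inhibitors, named after their values were seen, moved in different directions. Timp3, the inhibitor of this family with by far the most reads in cortex, fell from 4091 ± 336 to 3110 ± 283 CPM (log2 -0.40, SE 0.09, adjusted p = 0.0145). Timp2 rose from 45.1 to 67.4 CPM (log2 0.58, SE 0.16, adjusted p = 0.0324), and Timp4 did not pass the test. The call of Timp2 was lost in the first kidney alone (0.57, adjusted p = 0.0615) and without 43-49 (0.46, adjusted p = 0.0888), 43-50 (0.56, adjusted p = 0.0928), 43-75 (0.51, adjusted p = 0.0997) or 43-76 (0.50, adjusted p = 0.111).

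**Figure D4:**
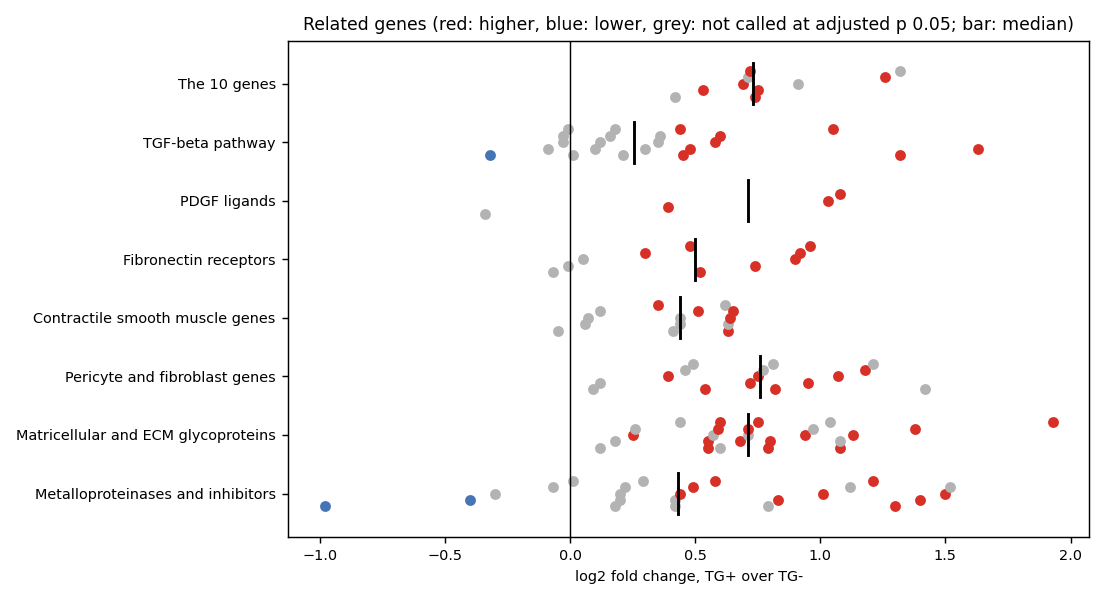
Log2 fold change of TG+ over TG- (horizontal axis) of the 10 genes and of the tested genes of 7 related lists, red where called higher, blue where called lower and grey where not called at an adjusted p of 0.05, with a bar at the median. The medians lie between 0.25 (TGF-β pathway) and 0.76 (pericyte and fibroblast genes), and 3 genes are blue.

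Markers of several cell types of the cortex moved with the genotype, so the higher mean levels of the 10 genes stand beside other shifts in the slice. Over all genes tested 15.4% were called higher and 10.9% lower. All 9 endothelial markers rose (median log2 0.70), and their summed level was between 710 and 757 CPM in TG+ and between 408 and 528 CPM in TG-. Of 10 macrophage markers 7 rose (median 0.67, summed 208 to 238 against 122 to 168 CPM). Of 10 lymphocyte markers 6 rose (median 1.21, summed 351 to 1180 against 94.0 to 348 CPM). Much of that sum was Ighm in 43-49 (651 CPM) and 43-50 (273 CPM), and without Ighm the sums were 311 to 551 CPM in TG+ and 73.8 to 104 CPM in TG-, chosen after seeing the data.

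Of 10 proximal tubule markers 6 fell (median log2 -0.55, and -0.43 scaled by library size alone, summed 25867 to 28958 CPM in TG+ and 34321 to 36640 CPM in TG-). Of 8 mesangial cell and podocyte markers 3 rose (median 0.31, summed 584 to 679 against 449 to 531 CPM), and of 8 tubule injury markers 6 rose (median 1.38, summed 656 to 787 against 543 to 680 CPM). Most of that sum was Spp1, which did not pass the test (527 to 689 CPM per mouse), and without it, chosen after seeing the data, the sums were 54.4 to 98.5 CPM in TG+ and 15.9 to 39.2 CPM in TG-, with no overlap. The fibroblast list, which holds Pdgfra, Pdgfrb and Postn, rose in 5 of 8 (summed 221 to 299 against 146 to 169 CPM), and the smooth muscle list, which holds Acta2 and Tagln, in 2 of 6 (summed 138 to 206 against 102 to 134 CPM). Pdgfra and Pdgfrb are among those fibroblast calls and Tagln among the smooth muscle calls, so both lists partly repeat the 10 genes. Sums without the 10 genes were not taken. Leaving out 43-75 or 43-76 left 1 of the 8 fibroblast markers called, 1 of the 6 smooth muscle markers and 4 of the 10 macrophage markers, and leaving out 43-76 left 1 of the 8 mesangial cell and podocyte markers. The fibroblast count was 2 without 43-49 and 3 without 43-26, the smooth muscle count was 1 without 43-49 and 4 without 43-29, and the macrophage count was 4 without 43-29. With the pairs of mice as a block, 5 of the 6 smooth muscle markers were called. In the first kidney alone the counts were 2 for fibroblast, 1 for smooth muscle and 4 for macrophage markers, and scaled by library size alone 4 for smooth muscle and 5 for mesangial cell and podocyte markers. The endothelial count was 8 or 9 with any mouse left out. No marker of these lists was at 0 in the group means. The marker with the highest CPM in TG-, which is not a level per length, was Csf1r for macrophages (48.7 CPM), Ighm for lymphocytes (101 CPM, with an SD of 149), Eng for endothelium (118 CPM), Podxl for podocytes (268 CPM), Spp1 for injury (597 CPM), Myl9 for smooth muscle (31.8 CPM) and Pdgfrb for fibroblasts. The median of the 10 genes, 0.73 on the log2 scale, stood beside 0.70 for the endothelial and 0.67 for the macrophage markers, and the part of these shifts in the result was not tested.

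**Figure D5:**
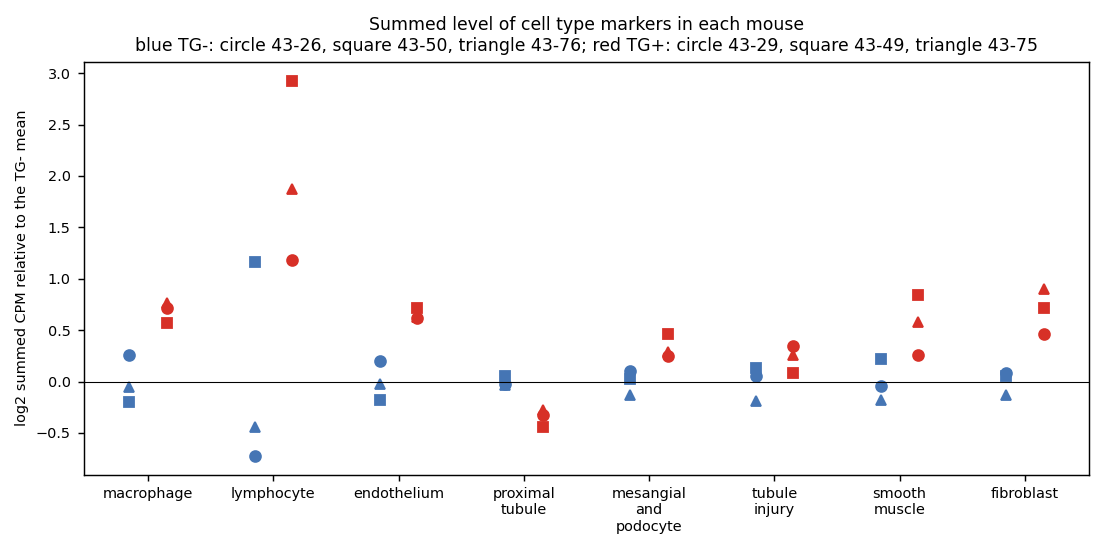
Summed CPM of 8 lists of cell type markers in each mouse, as log2 relative to the TG- mean (vertical axis), TG- in blue and TG+ in red. TG+ mice lie above TG- mice for macrophage, lymphocyte, endothelial, mesangial and podocyte, smooth muscle and fibroblast markers, and below them for proximal tubule markers. They overlap for the tubule injury markers, whose sum is mostly Spp1, and not when Spp1 is left out (54.4 to 98.5 against 15.9 to 39.2 CPM).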

How the data were processed

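RNA from a thin outer slice of kidney cortex was made into libraries with the Illumina TruSeq RNA kit and sequenced as 51-bp single-end reads, with 2 libraries (the 2 kidneys) from each of 6 mice. The submitters' processing notes name the genome build mm9, so gene positions are not given here except for RefSeq windows of GRCm38.p6. The study's methods name the Tuxedo tools for most of the analysis. Which program made the deposited counts, the annotation release and the use of strand are not given in the sources used here. The authors deposited a table of 37681 Ensembl genes with raw read counts per library. The RPKM values the authors deposited were scaled after adding 1 to each count, and they were used only to order genes by level, as the mean of the kidneys of a mouse. The 12 columns of log2 RPKM and the authors' own comparison columns (fold changes, p-values, group means) were not used. Symbols were matched by Ensembl identifier to GENCODE M21 for 32642 genes (86.6%), including all 10.

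Counts were summed over the kidneys of each mouse (48052131 to 60506785 reads per mouse), filtered with filterByExpr, and scaled by TMM. The quasi-likelihood test of edgeR 4.0.16 was run in R 4.3.3 (with limma 3.58.1), and p-values were adjusted over 19399 genes by the Benjamini-Hochberg method. Standard errors are the log2 fold change divided by the square root of F. A gene was called at an adjusted p below 0.05. Exact permutation tests of 3 against 3 mice cannot go below a 2-sided p of 0.1. The procedure was tested on simulated data. The 10 genes and all lists were chosen with earlier results of these data known, so their counts are descriptions. Named were the 10 genes; from each related list the 3 called genes of smallest adjusted p without overlap of the groups and the gene of lowest log2 fold change; the marker of highest CPM in TG- of each marker list; the 3 genes most like Fn1; and Hif1a and Car9. A gene that this rule names in the TGF-β pathway list is not reported here. Other named genes (Tgfb2, the Ltbp, receptor and Smad genes, Des, Synpo2, Myh11, Cnn1, Timp2, Timp3, Timp4 and the overlapping genes) were chosen after their values were seen. Alternatives were DESeq2 1.42.0, upper-quartile factors, library size alone, centring on the median gene, no filter, each kidney alone, a replicate block for the pairs of mice in the name of the deposited table, and leaving out each mouse. Tables came from pandas 2.3.3 and plots from matplotlib 3.10.9 under Python 3.11.15.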

Additional observations from a re-analysis of the deposited data

Results flagged for a closer look

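A library of the TG- mouse 43-76 (its first kidney) stood apart for Timp1 from the other TG- libraries. It held 6 reads (0.243 CPM), while the nearest other TG- library was at 0.472 CPM. The gap took up 0.721 of the range of the 6 TG- libraries in Dixon's test, above the 95% critical value for 6 samples. Of 20 groups of 6 libraries examined (the 10 genes in each genotype) this was the only one, and chance alone passes that value in about 1 of 20 groups. The kidneys of a mouse are not independent, so the test is only a guide.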

How the results depend on the processing

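With 6 genes called higher and none lower, the count over the 10 genes was 6 with DESeq2, upper-quartile factors or centring on the median gene, 7 with library size alone or without a filter, 5 with the first and 7 with the second kidney alone, and 4 to 8 with single mice left out (4 without 43-75 or 43-76, 8 without 43-29). No gene was called lower in any of these settings. Fn1 was past the study's threshold in 14 of 14 alternatives. The median log2 fold change ranged from 0.68 to 0.85, also with single mice left out. Library size alone moved the median of all genes from 0.01 to 0.132 and that of the 10 genes by a like amount, from 0.73 to 0.85. Of 140 single-gene values all were above 0, and 123 kept their side of the threshold. Besides the mice named beside each gene, Pdgfra missed it with the first kidney alone (0.50, adjusted p = 0.136), and Acta2 passed with library size alone (0.84, adjusted p = 0.0394), without a filter (0.70, adjusted p = 0.0456) and with the second kidney alone (0.66, adjusted p = 0.046).

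The name of the deposited table sets the mice in 3 pairs, and the TG- mice are littermates, but the sample labels do not say what a pair shares. The correlation of deviations within pairs was 0.39 (43-26 and 43-29), 0.326 (43-49 and 43-50) and -0.021 (43-75 and 43-76), so 1 pair did not deviate together, and the unblocked test was kept. With a replicate block for the pairs, 7 of the 10 genes were called, with Acta2 added (0.70, adjusted p = 0.00833), and the median was 0.74. The block also called Pdgfc lower and 5 of 6 smooth muscle markers higher, and no other call among the 10 genes changed. The planned ordering by a length column of the deposited table was not run, since the table as read here holds no such column, and GENCODE exonic length, chosen after seeing the data, was used. Reads were fewest for Timp1 (19 to 69 per mouse) and Postn (38 to 274), and the part of depth in their missed calls was not tested.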
